A study of Mus musculus with 10 samples.

Results

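The glutathione and Nrf2 antioxidant genes were followed in mouse gastric tumours of an inflamed and a desert type. They were the protein-coding genes of the deposited table named as alpha, mu, omega, pi or theta glutathione S-transferases or as Gpx1 to Gpx8, together with 16 named genes of the Nrf2 switch, glutathione supply, thioredoxin system and reactive oxygen removal. The rule found 45 of 56748 genes. The 5 inflamed tumours came from stomachs of mice labelled Tff1-CreERT2;Apcfl/fl;Trp53fl/fl with a genetic mutation as the treatment. CreERT2 is a tamoxifen-inducible Cre recombinase, here tied to Tff1, a gene of gastric pit cells, and it removes the floxed stretches of Apc and Trp53. The 5 desert tumours, also labelled stomach, were orthotopic allografts with wild type as the genotype. The labels do not say whether that names the host or the graft, and they give no ages. Type therefore coincided with model, genotype and the route by which the tumour arose, and these cannot be told apart.

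Nrf2, encoded by Nfe2l2, is a transcription factor that Keap1 holds back by handing it to a ubiquitin ligase, and oxidants or electrophiles release it. Nrf2 then pairs with a small Maf protein at antioxidant response elements near genes that make glutathione, attach it to reactive compounds or restore thiols. Glutathione is the main small thiol of the cell: glutathione peroxidases spend it on peroxides, glutathione S-transferases (GSTs) on electrophiles, and glutathione reductase regenerates it. The gastric lining meets acid, food electrophiles and microbes, and its epithelium carries much of this defence.

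Of the 42 genes that passed the filter of a mean of 0.5 FPKM (reads scaled by gene length and library size), 35 were called higher in inflamed tumours, 2 were called lower and 5 were not called. A call was a Benjamini-Hochberg adjusted p under 0.05 in a limma fit of log2(FPKM + 1) over all 16750 tested genes. Over all tested genes 31.0% were called higher and 31.2% lower. The median log2 difference, inflamed minus desert, was 1.34 over the 42 genes and -0.007 over all tested genes. In 33 of the 42 every inflamed tumour exceeded every desert tumour, an arrangement found in 24.4% of all tested genes. In 2, Gstm5 and Cat, every inflamed tumour lay below every desert tumour, the arrangement of another 24.4% of all tested genes. The untested genes were Gstt4, Gpx5 and Gpx6, too low to pass the filter. The filter took the mean over all tumours of both groups. Slc7a11, Gsta1, Gsta2, Gsta5, Gsto2, Gstp3, Gstt1 and Gstt3 averaged 0 to 0.447 FPKM in desert tumours. They passed only through inflamed tumours, so the filter largely set their direction. The shares over all tested genes include genes that passed through a single group in the same way. In bulk tumour RNA, fewer cells of a type and less RNA per cell cannot be told apart.

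**Figure D1:**
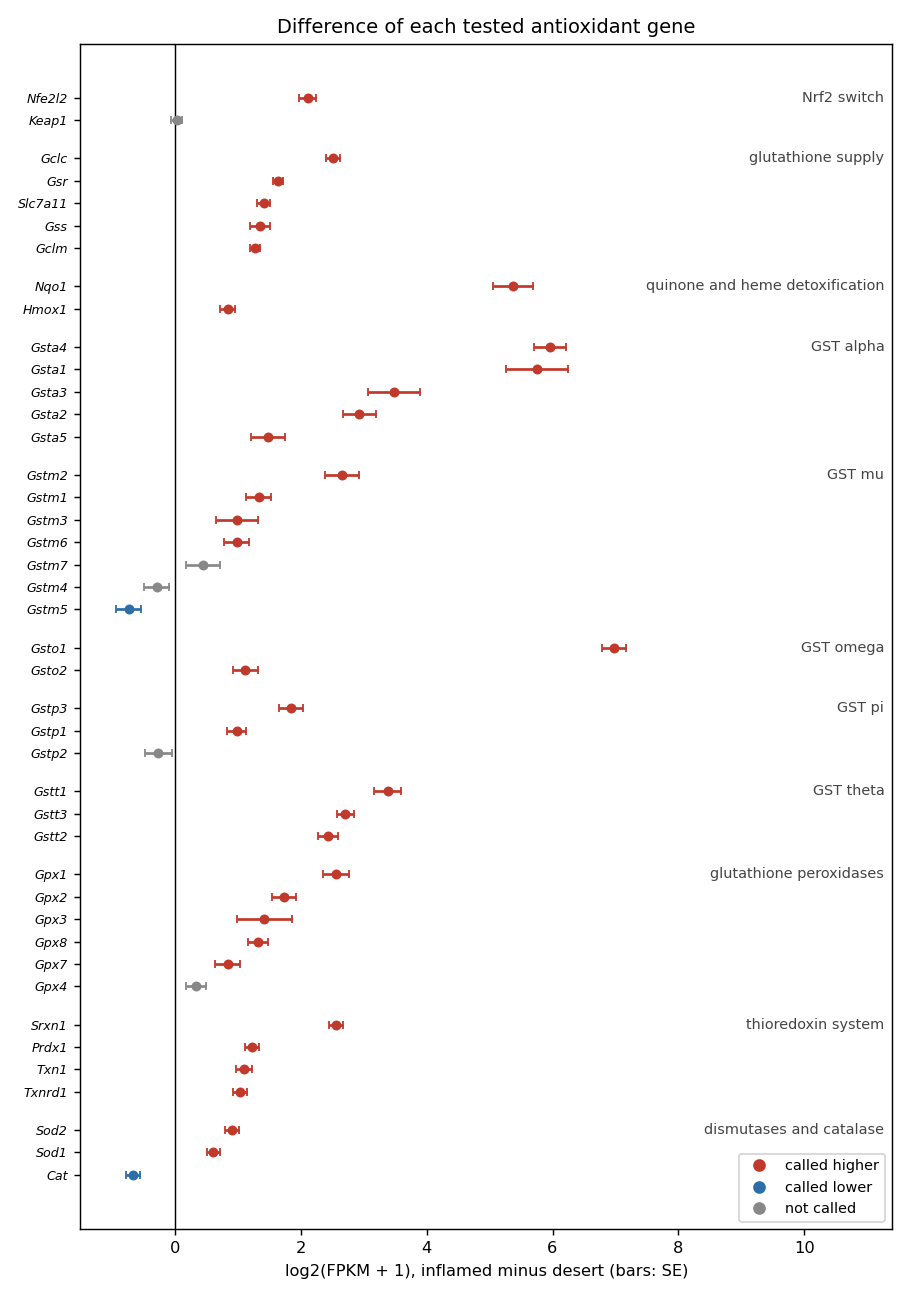
Difference in log2(FPKM + 1), inflamed minus desert, for each of the 42 tested genes, grouped by role, with bars for the SE (5 tumours per group) and colour for the call. Gsto1 lies farthest right at 6.97 and Gstm5 farthest left at -0.73, and the genes to the left of 0 are Gstm4, Gstm5, Gstp2 and Cat.

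Depth did not separate the groups, with 15474313 to 15975770 reads in genes in inflamed tumours and 14148147 to 16951640 in desert tumours. The summed FPKM did, at 280795 to 356133 in inflamed tumours and 236901 to 269525 in desert tumours. Rescaling every library to the same sum (TPM) moved the median difference of all tested genes to -0.28, and small differences below are read against that shift. On the TPM scale 3769 of all tested genes were called higher and 6989 lower, beside 5197 and 5221 in FPKM, and the antioxidant genes were called higher in 34 and lower in 5 of 42. Gastric neck and chief cell markers summed to 8603 to 16362 FPKM in inflamed tumours and 15.5 to 38.8 in desert tumours, with 4 of 5 called higher. For gastric pit cell markers the sums were 1313 to 30370.4 FPKM in inflamed tumours and 0.357 to 7.10 in desert tumours, with 3 of 4 called higher. For parietal cell markers the sums were 5.01 to 236 FPKM in inflamed tumours and 2.46 to 17.3 in desert tumours, with 2 of 3 tested called higher. Desert tumours thus had low sums of pit, neck and chief cell markers despite the stomach label. Muc6 of neck cells nonetheless averaged 21.3 FPKM there. Atp4a made up most of the desert parietal sums, at a mean of 10.7 FPKM. Beside it, Atp4b averaged 0.168 FPKM in desert tumours, Kcne2 0.0670 and Slc26a7 0. Pan-epithelial markers were present in both groups, at 3317 to 6318 FPKM in inflamed tumours and 1523 to 2227 in desert tumours, with 4 of 6 called higher. Neutrophil markers (8.05 to 168 FPKM in inflamed tumours, 0.716 to 1.57 in desert tumours) and T cell markers (9.76 to 25.7 in inflamed tumours, 0.126 to 0.649 in desert tumours) were called higher in 5 of 5 genes each. All of these, and some genes of other marker lists, passed the filter only through inflamed tumours. Intestinal epithelial markers summed to 211 to 961 FPKM in inflamed tumours and 4.75 to 8.73 in desert tumours, with 3 of 3 tested called higher. Those sums were mostly Krt20, Vil1 and Lgals2. Cdx2, Cdx1 and Fabp1 did not pass the filter. In inflamed tumours they averaged 0.551, 0.0706 and 0.954 FPKM, and in desert tumours 0, 0.0762 and 0.0213. Smooth muscle markers summed to 24.6 to 535 FPKM in inflamed tumours and 1.73 to 36.7 in desert tumours (4 of 5 higher), and endothelial markers to 14.4 to 36.5 in inflamed tumours and 11.2 to 15.996 in desert tumours (3 of 5 higher). Hepatocyte markers, of interest because liver is rich in GSTs, summed to 19.6 to 60.4 FPKM in inflamed tumours and 22.4 to 70.6 in desert tumours, with 1 of 3 tested called higher. Their members went different ways: Apoa1 averaged 19.3 FPKM in inflamed tumours and 0.0602 in desert tumours and was called higher, while Alb averaged 4.29 in inflamed tumours and 24.4 in desert tumours and was not called. Serpina1a and Fgb were at or near 0 in both groups. The part of these cell types in the differences below was not tested.

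The antioxidant response element is the short DNA word that Nrf2 reads, and its core was searched as TGACNNNGC on both strands of the promoter windows of RefSeq (GRCm38.p6, 250 bases before to 50 after each start, 300 in all). Windows were found for 39 of the 45 genes and the core for 9 of these, or 23.1%. Among genes called higher it was found in 7 of 29 with a window, or 24.1%. Over all windows of that length the share was 12.4%, and over all other genes with a window it was 14.0%. Genes can have several windows, and the 45 genes had 51, of which 9 or 17.6% held the core. Gclc, Gsr, Hmox1, Gsta4, Gsta5 and Gstt2 had no window. The stretches that hold a match are shown because they include Nrf2's own gene and 3 of the 4 thioredoxin system genes. For Txnrd1 the match lay in 1 of its 3 windows. They read 5′ to 3′ along the gene, with the match in capitals; GCNNNGTCA is the same word on the opposite strand.
Nfe2l2, chr2:75704885-75704913, minus strand: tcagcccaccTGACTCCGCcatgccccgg
Gclm, chr3:122245413-122245441, plus strand: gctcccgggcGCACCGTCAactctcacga
Gsta3, chr1:21240454-21240482, plus strand: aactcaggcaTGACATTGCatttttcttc
Txnrd1, chr10:82859104-82859132, plus strand: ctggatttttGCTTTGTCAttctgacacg
Prdx1, chr4:116685456-116685484, plus strand: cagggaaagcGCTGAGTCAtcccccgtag
Srxn1, chr2:152105542-152105570, plus strand: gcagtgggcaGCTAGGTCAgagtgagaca
Sod1, chr16:90220696-90220724, plus strand: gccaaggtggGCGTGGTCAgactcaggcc
Gstm5, chr3:107895802-107895830, plus strand: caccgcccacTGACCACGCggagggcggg
Gstm7, chr3:107931725-107931753, minus strand: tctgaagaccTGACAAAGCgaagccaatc

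The first 7 of these belong to genes called higher, Gstm5 was called lower and Gstm7 was not called, so a match was found on either side of the call. No match was found in the windows of Nqo1, Gsto1 and Gsta1, whose differences were among the largest of the set. A match is only the presence of these letters in this window. Sequence outside the windows was not searched, so a missing match does not mean that a gene lacks the element.

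At the Nrf2 switch, the activator differed and its inhibitor did not pass the test. Nfe2l2 (chromosome 2, 75505857 to 75534985 in the deposited table, which names no build for its positions) had 57.5, 62.5, 69.9, 99.4 and 78.2 FPKM in inflamed tumours, against 15.6, 16.0, 17.7, 14.9 and 15.4 FPKM in desert tumours. The groups were far apart, and inflamed tumour 4 was the highest. The means were 73.5 ± 16.5 FPKM in inflamed tumours and 15.9 ± 1.05 in desert tumours (SD, n = 5 each), a log2 difference of 2.11 (SE 0.14, limma adjusted p = 2.95e-07). Keap1 had 14.4, 12.6, 12.7, 13.3 and 15.3 FPKM in inflamed tumours, against 15.7, 12.5, 11.95, 12.2 and 14.6 FPKM in desert tumours. Those ranges overlapped almost wholly, with a log2 difference of 0.03 (SE 0.09, limma adjusted p = 0.797). On the TPM scale Keap1 was called lower, at -0.26 (limma adjusted p = 0.0403, the lowest of its 19 alternatives, which reached 0.987), which is about the shift of all tested genes. The ratio of Nfe2l2 to Keap1 in FPKM, which scaling a library up or down does not alter, was 5.41 ± 1.29 in inflamed tumours and 1.20 ± 0.192 in desert tumours (SD, n = 5 each). It ran between 3.98 and 7.48 in inflamed tumours and between 0.991 and 1.48 in desert tumours, without overlap.

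Among Nrf2's partners and regulators outside the set, 2 of 10 tested genes were called higher and 5 lower, with a median log2 difference of -0.47. For this and each further list, the shares over all tested genes were 31.0% called higher and 31.2% lower. Mafk, a small Maf partner, averaged 19.4 ± 4.66 FPKM in inflamed tumours and 4.83 ± 0.924 in desert tumours (log2 difference 1.80, SE 0.16, limma adjusted p = 4.31e-06). Bach2, a repressor related to Bach1 that competes for Maf sites, averaged 0.810 ± 0.178 FPKM in inflamed tumours and 5.41 ± 0.543 in desert tumours (log2 difference -1.82, SE 0.10, limma adjusted p = 1.21e-07). Sqstm1, the autophagy adaptor p62 that can sequester Keap1, averaged 75.9 ± 7.90 FPKM in inflamed tumours and 141 ± 49.2 in desert tumours (log2 difference -0.82, SE 0.21, limma adjusted p = 0.00499). The other small Mafs of the list were called lower. Mafg averaged 37.7 ± 6.52 FPKM in inflamed tumours and 69.97 ± 19.3 in desert tumours (log2 difference -0.85, SE 0.19, limma adjusted p = 0.00251), and Maff 7.52 ± 0.889 in inflamed tumours and 12.8 ± 5.41 in desert tumours (log2 difference -0.63, SE 0.21, limma adjusted p = 0.0199). Both were named after their values were seen. All these are SDs over 5 tumours per group.

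Every gene of glutathione supply was called higher, 5 of 5, without overlap between the groups. These genes import cystine (Slc7a11), join cysteine to glutamate (Gclc and Gclm, the catalytic and modifier subunits of glutamate-cysteine ligase), add glycine (Gss) and reduce oxidised glutathione (Gsr). Gclc, the rate-limiting catalytic subunit, had 32.6, 31.7, 35.8, 37.7 and 35.9 FPKM in inflamed tumours, against 5.97, 5.81, 5.43, 3.69 and 5.68 FPKM in desert tumours. Its inflamed values were close together, and desert tumour 4 was the low one of its group. The log2 difference of Gclc was 2.51 (SE 0.11, limma adjusted p = 2.37e-08), with a ratio of means of 6.53. Gclm had 16.9, 14.8, 14.3, 17.0 and 15.4 FPKM in inflamed tumours, against 6.39, 6.08, 6.36, 5.72 and 5.12 FPKM in desert tumours, with a log2 difference of 1.27 (SE 0.08, limma adjusted p = 3.10e-07). The catalytic subunit thus differed by more than the modifier: the ratio of Gclc to Gclm in FPKM was 2.22 ± 0.213 in inflamed tumours and 0.899 ± 0.170 in desert tumours (SD, n = 5 each), between 1.94 and 2.50 in inflamed tumours and between 0.644 and 1.11 in desert tumours.

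Slc7a11, the exchanger subunit of the cystine-glutamate antiporter, was low in both groups and passed the filter only through inflamed tumours. It had 2.18, 1.58, 1.92, 1.68 and 1.79 FPKM in inflamed tumours, against 0.0328, 0.135, 0.0625, 0.0453 and 0.0417 FPKM in desert tumours. Between 7 and 32 reads stood behind each desert value. The ratio of the means was 28.8, whereas the log2 difference of 1.41 (SE 0.10, limma adjusted p = 5.55e-07) understates it because of the added 1. Its heavy-chain partner Slc3a2 was called lower, at 25.2 ± 2.90 FPKM in inflamed tumours and 38.3 ± 5.83 in desert tumours (SD, n = 5 each; log2 difference -0.58, SE 0.12, limma adjusted p = 0.00125); it was picked for this partnership after its value was seen. Gsr was the most abundant of the 5, with 85.7, 85.4, 78.0, 94.0 and 95.5 FPKM in inflamed tumours, against 28.9, 26.6, 26.6, 25.8 and 28.9 FPKM in desert tumours (log2 difference 1.64, SE 0.08, limma adjusted p = 4.70e-08). Gss, glutathione synthetase, averaged 19.0 ± 4.78 FPKM in inflamed tumours and 6.73 ± 1.15 in desert tumours (SD, n = 5 each), a log2 difference of 1.35 (SE 0.16, limma adjusted p = 2.61e-05).

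**Figure D2:**
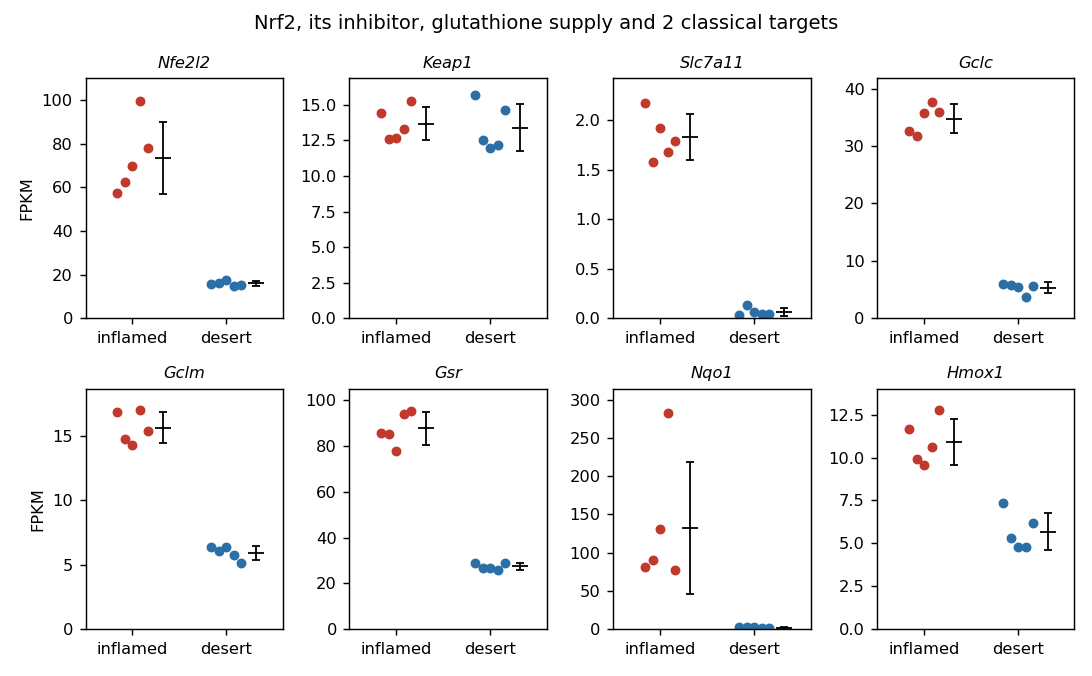
FPKM of Nfe2l2, Keap1, 4 genes of glutathione supply, Nqo1 and Hmox1 in each of 5 inflamed (red) and 5 desert (blue) tumours, with mean and SD beside the points and a separate axis from 0 for each gene. The groups overlap for Keap1, and Nqo1 in inflamed tumour 4 stands at 282 FPKM above the other 4 inflamed tumours.

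The opposite direction prevailed in a list of glutathione turnover and transport genes: of 17 tested, 4 were called higher and 10 lower, with a median log2 difference of -0.58. Besides genes that break down, salvage or move glutathione, the list held Cbs and Cth of cysteine synthesis, Slc3a2, and the glyoxalases Glo1 and Hagh. Cbs, Slc3a2 and Hagh were called lower, Glo1 was called higher and Cth was not called. The contrast with glutathione supply thus depends partly on how genes were assigned. Ggt7, a member of the gamma-glutamyltransferase family, fell the most, with means of 1.53 ± 0.512 FPKM in inflamed tumours and 22.0 ± 5.18 in desert tumours (log2 difference -3.18, SE 0.18, limma adjusted p = 1.51e-07). Anpep, an aminopeptidase that splits cysteinylglycine, was the most abundant, at 47.1 ± 17.5 FPKM in inflamed tumours and 202 ± 29.0 in desert tumours (log2 difference -2.14, SE 0.22, limma adjusted p = 1.15e-05). Ggt5, another gamma-glutamyltransferase family member, rose the most, at 1.70 ± 0.401 FPKM in inflamed tumours and 0.184 ± 0.0859 in desert tumours (log2 difference 1.18, SE 0.13, limma adjusted p = 1.29e-05). These SDs are over 5 tumours per group.

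Both classical Nrf2-responsive enzymes of quinone and heme detoxification were called higher, by very different amounts. Nqo1, a quinone reductase that avoids the semiquinone step, had 81.2, 89.6, 131, 282 and 76.5 FPKM in inflamed tumours, against 1.89, 2.12, 2.44, 1.59 and 1.19 FPKM in desert tumours. The lowest inflamed value lay far above the highest desert value, and inflamed tumour 4 was well above its group. The log2 difference of Nqo1 was 5.37 (SE 0.32, limma adjusted p = 1.83e-07). Hmox1, heme oxygenase, which opens the heme ring to release iron, carbon monoxide and biliverdin, had 11.7, 9.90, 9.57, 10.6 and 12.8 FPKM in inflamed tumours, against 7.33, 5.31, 4.79, 4.77 and 6.20 FPKM in desert tumours. Its groups also stayed apart, with a log2 difference of 0.84 (SE 0.12, limma adjusted p = 1.18e-04). Macrophages and red cells bear on heme: macrophage markers summed to 92.6 to 384 FPKM in inflamed tumours and 91.0 to 267 in desert tumours (1 of 7 called higher), and red cell markers to 1.56 to 73.6 in inflamed tumours and 32.0 to 153 in desert tumours (0 of 5 higher, 2 lower). Their part in the Hmox1 difference was not tested.

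Of 16 further genes known as Nrf2 targets, 11 were called higher and 3 lower, with a median log2 difference of 0.93. Aldh3a1, an aldehyde dehydrogenase, averaged 51.7 ± 33.0 FPKM in inflamed tumours and 0.0476 ± 0.0350 in desert tumours (log2 difference 5.41, SE 0.37, limma adjusted p = 5.37e-07). Blvrb, a biliverdin and flavin reductase, averaged 23.6 ± 4.24 FPKM in inflamed tumours and 77.3 ± 14.0 in desert tumours (log2 difference -1.67, SE 0.15, limma adjusted p = 3.31e-06). Fth1, the ferritin heavy chain that stores iron, averaged 291 ± 46.1 FPKM in inflamed tumours and 593 ± 98.0 in desert tumours (log2 difference -1.02, SE 0.15, limma adjusted p = 1.13e-04). These SDs are over 5 tumours per group.

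The GSTs, which attach glutathione to electrophiles, formed the largest family, with 21 genes of which 20 were tested. Of these 16 were called higher, 1 lower and 3 were not called, and the median log2 difference was 1.66. Their FPKM summed to 1714, 1727, 2021, 3339 and 1915 in inflamed tumours, against 242, 223, 268, 225 and 312 in desert tumours. The classes differed in how far they moved, so the makeup of the family differed. Omega GSTs took 46.5% ± 2.63 of the summed GST FPKM in inflamed tumours and 2.84% ± 0.813 in desert tumours, and alpha GSTs took 35.8% ± 5.36 in inflamed tumours and 4.82% ± 1.09 in desert tumours. Mu GSTs took 11.8% ± 2.78 in inflamed tumours and 71.0% ± 4.43 in desert tumours, and pi GSTs 4.60% ± 0.628 in inflamed tumours and 20.8% ± 3.10 in desert tumours. Theta GSTs took 1.36% ± 0.0842 in inflamed tumours and 0.510% ± 0.192 in desert tumours (SD, n = 5 each for all shares). The groups did not overlap in the share of any of the 5 classes.

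**Figure D3:**
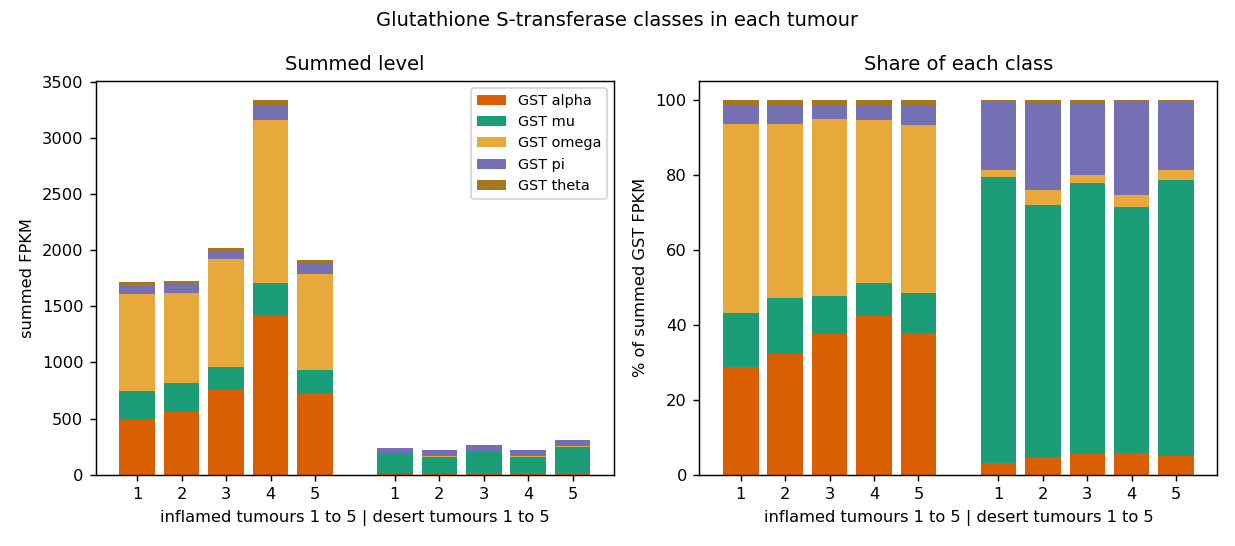
Summed FPKM of the GST classes in each tumour (left) and the share of each class in that sum in percent (right), inflamed tumours on the left of each panel and desert tumours on the right. Inflamed tumour 4 has the highest sum at 3339 FPKM, and mu GSTs fill 65.6% to 76.3% of the sum in desert tumours.

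The omega class rested on Gsto1, an enzyme with thiol transferase and dehydroascorbate reductase activity. It had 862, 802, 957, 1448 and 858 FPKM in inflamed tumours, against 4.45, 8.44, 5.77, 7.46 and 8.13 FPKM in desert tumours. The lowest inflamed value lay far above the highest desert value, and the ratio of means was 144. Gsto1 differed by 6.97 on the log2 scale (SE 0.19, limma adjusted p = 8.67e-10), the 25th largest rise of 16750 tested genes. By mean FPKM Gsto1 ranked 23rd of all genes in inflamed tumours and 6697th in desert tumours. Its neighbour Gsto2 (both on chromosome 19, Gsto1 at 47843409 to 47853229 and Gsto2 at 47853973 to 47874763 in the table) averaged only 1.83 ± 0.957 FPKM in inflamed tumours and 0.256 ± 0.110 in desert tumours (SD, n = 5 each), a log2 difference of 1.12 (SE 0.20, limma adjusted p = 5.43e-04).

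All 5 alpha GSTs were called higher, without overlap, but Gsta1, Gsta2 and Gsta5 passed the filter only through inflamed tumours. Gsta4, which is specialised in 4-hydroxynonenal, a product of lipid peroxidation, made up most of the class. Gsta4 had 406, 473, 629, 1177 and 649.8 FPKM in inflamed tumours, against 6.95, 9.07, 10.4, 10.05 and 8.99 FPKM in desert tumours, with a log2 difference of 5.96 (SE 0.25, limma adjusted p = 1.42e-08). Gsta1 had 30.7, 20.5, 85.3, 192 and 43.1 FPKM in inflamed tumours, and its desert libraries held 2 reads in all. Gsta2 averaged 8.45 ± 4.78 FPKM in inflamed tumours and 0.148 ± 0.155 in desert tumours (SD, n = 5 each), from 16 desert reads in all. Those 2 genes have coding sequences 97.9% identical, so how reads were divided between them is uncertain. Gsta3, on chromosome 1 away from the chromosome 9 cluster of the others, went the other way among the inflamed tumours: tumours 1 and 2 were the highest at 48.6 and 54.9 FPKM and tumour 4 had 29.4. Its desert values ran between 0.495 and 5.96 FPKM, and the log2 difference of Gsta3 came to 3.48 (SE 0.41, limma adjusted p = 2.88e-05). Gsta5 had 0.952, 1.11, 1.49, 5.20 and 1.71 FPKM in inflamed tumours and no read in any desert tumour. Against a floor of 3 reads per library (0.163 FPKM on average) it was at least 12.8-fold higher in inflamed tumours, and at least 8.07-fold without inflamed tumour 4.

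The mu GSTs lie side by side on chromosome 3, between 107803137 and 107952210 in the table, and did not move together. Of the 7, Gstm1, Gstm2, Gstm3 and Gstm6 were called higher, Gstm5 was called lower, and Gstm4 and Gstm7 were not called. Gstm2 had 28.3, 29.7, 39.9, 41.1 and 25.8 FPKM in inflamed tumours, against 3.49, 3.996, 5.48, 2.04 and 8.73 FPKM in desert tumours (log2 difference 2.65, SE 0.27, limma adjusted p = 1.06e-05). Gstm5, the cluster's first gene and the most abundant GST in desert tumours, had 68.2, 80.7, 39.1, 72.9 and 81.3 FPKM in inflamed tumours, against 125, 99.2, 108, 89.9 and 138 FPKM in desert tumours. Its highest inflamed value stayed below its lowest desert value, with a log2 difference of -0.73 (SE 0.20, limma adjusted p = 0.00828). Gstm5 alone made up 3.40% ± 1.26 of all GST FPKM in inflamed tumours and 44.2% ± 4.65 in desert tumours (SD, n = 5 each). Gstm1, the most abundant mu GST in inflamed tumours, averaged 109.5 ± 23.0 FPKM there and 43.2 ± 11.3 in desert tumours (SD, n = 5 each), a log2 difference of 1.33 (SE 0.20, limma adjusted p = 1.89e-04).

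Of the remaining mu genes, Gstm3 and Gstm4 had calls that changed with a setting. Gstm3 had 3.07, 6.11, 3.01, 13.2 and 5.54 FPKM in inflamed tumours, against 3.28, 3.37, 1.37, 1.84 and 1.81 FPKM in desert tumours, so the groups overlapped although the gene was called (log2 difference 0.99, SE 0.33, limma adjusted p = 0.0232). That call was lost without desert tumour 3 (limma adjusted p = 0.0562) and without desert tumour 5 (0.0501), within a range of 0.0128 to 0.0562 over its alternatives. Its coding sequence is 89.5% identical to that of Gstm1. Gstm4 had 5.55, 4.52, 4.22, 6.39 and 6.19 FPKM in inflamed tumours, against 3.70, 6.34, 8.19, 8.01 and 8.74 FPKM in desert tumours, with desert tumour 1 below all inflamed tumours (log2 difference -0.29, SE 0.20, limma adjusted p = 0.213). Without that tumour it was called lower, at -0.47 (limma adjusted p = 0.0105), and on the TPM scale at -0.61 (0.0343), within a range of 0.0105 to 0.394. Gstm6 averaged 3.60 ± 1.34 FPKM in inflamed tumours and 1.28 ± 0.383 in desert tumours (SD, n = 5 each; log2 difference 0.98, limma adjusted p = 0.00150). Gstm7 had means of 14.3 ± 4.51 FPKM in inflamed tumours and 10.4 ± 4.33 in desert tumours (SD, n = 5 each) and was not called (limma adjusted p = 0.170). Summed over the class, mu GSTs had 240.3 ± 35.6 FPKM in inflamed tumours and 181 ± 34.0 in desert tumours (SD, n = 5 each), with a ratio of means of 1.33 in FPKM and 1.08 in TPM.

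Of the pi GSTs, Gstp1 and Gstp3 were called higher and Gstp2 was not called. Gstp1, which also scavenges many drug and carcinogen metabolites, had 73.7, 74.1, 66.3, 122 and 87.6 FPKM in inflamed tumours, against 36.5, 42.3, 41.5, 46.3 and 40.8 FPKM in desert tumours (log2 difference 0.98, SE 0.15, limma adjusted p = 2.09e-04). Gstp2 had 7.50, 8.85, 6.78, 13.9 and 6.37 FPKM in inflamed tumours, against 7.38, 9.62, 9.82, 9.40 and 16.5 FPKM in desert tumours, an overlap with a log2 difference of -0.26 (SE 0.22, limma adjusted p = 0.339). On the TPM scale Gstp2 was called lower at -0.57 (limma adjusted p = 0.0405, within a range of 0.0405 to 0.693). The coding sequences of Gstp1 and Gstp2 are 98.1% identical, so the division of reads between them is uncertain. Gstp3 had 5.32, 3.66, 2.02, 2.24 and 3.03 FPKM in inflamed tumours, against 0.215, 0.259, 0.137, 0.116 and 0 FPKM in desert tumours, which held 11 of its reads in all (log2 difference 1.84, SE 0.19, limma adjusted p = 1.03e-05).

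The theta GSTs, a class that acts on small halogenated compounds among others, were called higher in 3 of 3 tested genes. Of these, Gstt1 and Gstt3 passed the filter only through inflamed tumours. Gstt1 had 7.51, 10.9, 12.6, 21.0 and 13.3 FPKM in inflamed tumours, against 0.213, 0.270, 0.407, 0.550 and 0.0345 FPKM in desert tumours (log2 difference 3.38, SE 0.22, limma adjusted p = 3.39e-07). Gstt3 averaged 8.44 ± 1.41 FPKM in inflamed tumours and 0.447 ± 0.247 in desert tumours (SD, n = 5 each; log2 difference 2.71, SE 0.14, limma adjusted p = 7.55e-08). Gstt2 averaged 7.26 ± 1.87 FPKM in inflamed tumours and 0.520 ± 0.227 in desert tumours (SD, n = 5 each; log2 difference 2.43, SE 0.16, limma adjusted p = 4.08e-07). Gstt4, the untested theta gene, had 1 read in inflamed tumours and none in desert tumours.

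Outside the named classes, other glutathione transferases and glutaredoxins were called higher in 6 of 11 tested genes and lower in 4, with a median log2 difference of 0.41. Of the genes called higher, Mgst1 kept its call in 6 of 19 alternatives and Gstk1 in 16 of 19. Both overlapped between the groups and lost the call on the TPM scale. Glrx, a glutaredoxin that removes glutathione from protein thiols, averaged 15.7 ± 2.71 FPKM in inflamed tumours and 0.938 ± 0.252 in desert tumours (log2 difference 3.10, SE 0.13, limma adjusted p = 1.68e-08). Mgst3, a membrane-bound transferase, averaged 197 ± 129 FPKM in inflamed tumours and 25.6 ± 6.17 in desert tumours, with 415 in inflamed tumour 4 (log2 difference 2.72, SE 0.35, limma adjusted p = 5.13e-05). Gstz1, the zeta GST of tyrosine breakdown, averaged 5.54 ± 0.385 FPKM in inflamed tumours and 10.6 ± 2.63 in desert tumours (log2 difference -0.80, SE 0.16, limma adjusted p = 0.00103). These SDs are over 5 tumours per group.

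The glutathione peroxidases reduce peroxides at a residue that is selenocysteine in some members and cysteine in others. Selenocysteine is written as TGA, elsewhere a stop, and the codons are shown because the family splits by them. Each line gives the codon in capitals with 12 bases on either side of the coding strand, from GENCODE M21 transcripts of GRCm38; in the cysteine members the codon was placed by alignment with Gpx3 or Gpx4.
Gpx1: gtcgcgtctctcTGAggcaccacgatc
Gpx2: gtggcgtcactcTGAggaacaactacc
Gpx3: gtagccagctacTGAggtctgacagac
Gpx4: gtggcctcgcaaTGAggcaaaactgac
Gpx5: gtggctacctatTGCggtctgacaatc
Gpx6: gtggcatccttcTGTggcctgacagct
Gpx7: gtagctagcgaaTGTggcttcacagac
Gpx8: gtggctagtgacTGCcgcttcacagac

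Of the 6 peroxidases tested, 5 were called higher, with both kinds of codon among them, and Gpx4 was not called. Gpx1, the widespread cytosolic enzyme, had 25.3, 28.9, 22.6, 50.5 and 36.1 FPKM in inflamed tumours, against 6.51, 4.78, 3.66, 4.30 and 3.59 FPKM in desert tumours (log2 difference 2.56, SE 0.21, limma adjusted p = 2.15e-06). Gpx2, the form typical of gastrointestinal epithelium, had 149.9, 171, 125, 125 and 136 FPKM in inflamed tumours, against 63.2, 49.1, 32.8, 41.3 and 29.9 FPKM in desert tumours. It was the most abundant peroxidase of inflamed tumours, and its groups stayed apart with a log2 difference of 1.73 (SE 0.19, limma adjusted p = 1.77e-05). Gpx3, the secreted form, had 98.4, 56.1, 75.0, 21.6 and 29.8 FPKM in inflamed tumours, against 12.3, 26.9, 22.1, 8.55 and 26.1 FPKM in desert tumours. Inflamed tumour 4 fell within the desert range, and the log2 difference was 1.42 (SE 0.44, limma adjusted p = 0.0154). On the TPM scale the Gpx3 call was lost at 1.16 (limma adjusted p = 0.0544, within a range of 0.00434 to 0.0544).

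Gpx4, which reduces lipid hydroperoxides in membranes and guards against ferroptosis, had 62.5, 64.3, 57.5, 62.5 and 54.1 FPKM in inflamed tumours, against 52.9, 45.9, 53.7, 30.3 and 61.6 FPKM in desert tumours. The groups overlapped through desert tumour 5, with a log2 difference of 0.33 (SE 0.16, limma adjusted p = 0.104). Without that tumour Gpx4 was called higher at 0.42 (limma adjusted p = 0.0457, within a range of 0.0457 to 0.862). A Gpx4 pseudogene is also in the table, and how reads were shared with it is not known. The cysteine forms of the secretory pathway were low but called higher. Gpx7 averaged 6.004 ± 2.34 FPKM in inflamed tumours and 2.75 ± 0.139 in desert tumours (SD, n = 5 each; log2 difference 0.84, SE 0.20, limma adjusted p = 0.00397). Gpx8 averaged 4.34 ± 1.25 FPKM in inflamed tumours and 1.12 ± 0.300 in desert tumours (SD, n = 5 each; log2 difference 1.32, SE 0.16, limma adjusted p = 4.06e-05). Gpx5 and Gpx6, untested, reached at most 0.177 and 0.334 FPKM in inflamed tumours and 0.0942 and 1.998 in desert tumours.

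**Figure D4:**
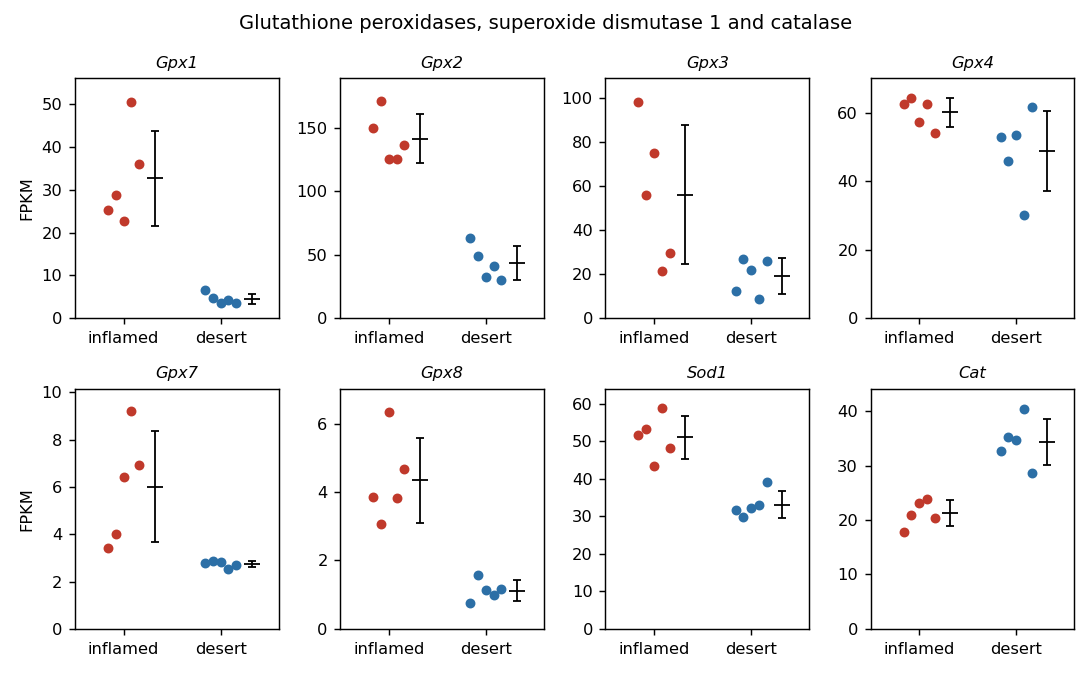
FPKM of 6 glutathione peroxidases, Sod1 and Cat in each of 5 inflamed (red) and 5 desert (blue) tumours, with mean and SD beside the points and a separate axis from 0 for each gene. Gpx3 and Gpx4 overlap between the groups, and Cat is the one gene of the 8 with all inflamed tumours below all desert tumours.

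Genes that make or carry selenium for these enzymes did not share a direction, with 3 of 9 tested called higher and 3 lower (median log2 difference -0.22). Those counts lie near the shares over all tested genes, 31.0% called higher and 31.2% lower. Selenop, the selenium transport protein, averaged 165 ± 42.0 FPKM in inflamed tumours and 39.8 ± 12.7 in desert tumours (SD, n = 5 each; log2 difference 2.06, SE 0.24, limma adjusted p = 2.75e-05). Trnau1ap, a factor associated with the selenocysteine transfer RNA, averaged 7.72 ± 0.690 FPKM in inflamed tumours and 19.1 ± 3.87 in desert tumours (SD, n = 5 each; log2 difference -1.19, SE 0.12, limma adjusted p = 8.85e-06).

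The thioredoxin system runs beside glutathione, and those of its genes that are in the set were called higher in 4 of 4, without overlap. Prdx1, a peroxiredoxin that removes hydrogen peroxide, was the most abundant, with 216, 263, 182, 234 and 254 FPKM in inflamed tumours, against 103, 102, 90.1, 97.0 and 91.9 FPKM in desert tumours (log2 difference 1.23, SE 0.11, limma adjusted p = 3.60e-06). Srxn1, sulfiredoxin, which repairs overoxidised peroxiredoxin, had 21.6, 19.1, 18.5, 25.9 and 23.6 FPKM in inflamed tumours, against 2.98, 2.53, 2.95, 2.29 and 3.44 FPKM in desert tumours (log2 difference 2.56, SE 0.11, limma adjusted p = 2.14e-08). The repair enzyme differed by more than its substrate, with Srxn1 to Prdx1 ratios in FPKM of 0.0955 ± 0.0143 in inflamed tumours and 0.0295 ± 0.00571 in desert tumours (SD, n = 5 each). Txn1, thioredoxin, averaged 200.5 ± 30.3 FPKM in inflamed tumours and 92.7 ± 12.1 in desert tumours (SD, n = 5 each; log2 difference 1.10, SE 0.13, limma adjusted p = 2.16e-05). Txnrd1, its reductase, averaged 48.0 ± 3.27 FPKM in inflamed tumours and 23.1 ± 3.54 in desert tumours (SD, n = 5 each; log2 difference 1.04, SE 0.11, limma adjusted p = 1.34e-05).

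Both intracellular superoxide dismutases were called higher and catalase lower. Sod2, the mitochondrial dismutase, had 10.3, 10.003, 9.29, 8.67 and 8.18 FPKM in inflamed tumours, against 5.32, 4.89, 4.33, 3.45 and 4.52 FPKM in desert tumours (log2 difference 0.91, SE 0.11, limma adjusted p = 2.43e-05). Sod1, the cytosolic one, had 51.6, 53.2, 43.3, 58.8 and 48.3 FPKM in inflamed tumours, against 31.6, 29.8, 32.1, 33.0 and 39.1 FPKM in desert tumours (log2 difference 0.61, SE 0.10, limma adjusted p = 3.77e-04). Cat, catalase, the peroxisomal enzyme that splits hydrogen peroxide without glutathione, had 17.8, 21.0, 23.1, 23.8 and 20.3 FPKM in inflamed tumours, against 32.6, 35.3, 34.7, 40.4 and 28.6 FPKM in desert tumours. Each inflamed tumour was below each desert tumour, with a log2 difference of -0.67 (SE 0.11, limma adjusted p = 2.83e-04). Among other thioredoxin, peroxiredoxin and dismutase genes, 5 of 17 tested were called higher and 7 lower (median log2 difference -0.17). Txn2, Txnrd2 and Prdx2 were called lower, with log2 differences of -0.35, -0.63 and -0.56. The Txn2 call was lost without inflamed tumour 1 and without inflamed tumour 3. Prdx5 and Prdx6 were called higher, at 1.11 and 1.22, and Txnrd3, Prdx3 and Prdx4 were not called. All of these were named after their values were seen. Sod3, the extracellular dismutase, averaged 11.9 ± 3.75 FPKM in inflamed tumours and 0.917 ± 0.579 in desert tumours (SD, n = 5 each; log2 difference 2.75, SE 0.25, limma adjusted p = 4.39e-06). Txnip, an inhibitor of thioredoxin, averaged 145 ± 33.4 FPKM in inflamed tumours and 24.4 ± 9.67 in desert tumours (SD, n = 5 each; log2 difference 2.59, SE 0.30, limma adjusted p = 2.34e-05). Msrb2, a mitochondrial methionine sulfoxide reductase, averaged 4.17 ± 0.951 FPKM in inflamed tumours and 13.3 ± 3.02 in desert tumours (SD, n = 5 each; log2 difference -1.45, SE 0.16, limma adjusted p = 1.81e-05).

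Within the inflamed group the antioxidant genes were not evenly spread over tumours. Inflamed tumour 4 was the highest of the 5 in 26 of 42 genes, whereas it was highest in 27.2% of all tested genes, and inflamed tumour 3 was the lowest in 15 of 42, against 21.0% of all tested genes. On log2(FPKM + 1), the median deviation of the 42 genes from their group mean was 0.24 in inflamed tumour 4 and between -0.13 and -0.01 in the other 4. In desert tumours the medians lay between -0.08 and 0.04. Some genes ran against this. Inflamed tumour 4 was the lowest of the 5 in 3 of 42 genes, Gpx2, Gpx3 and Txnrd1, against 27.7% of all tested genes. It was second lowest in Gsta3, Slc7a11, Sod2, Gstp3 and Gpx8, among others. The largest summed FPKM was also that of inflamed tumour 4, at 356133, beside 280795 to 312690 in the other 4. These places and deviations are in FPKM and were not recomputed on the TPM scale, which sets those sums equal. The median deviation of all tested genes was not computed, so the 0.24 cannot be told apart from this difference in scale. Inflamed tumour 4 also had the most pit cell marker transcripts. Gkn2, a gastrokine of pit cells, stood there at 18299.7 FPKM and at 800.3, 1752, 2443 and 5555 FPKM in inflamed tumours 1, 2, 3 and 5. Of the 15 marker lists its sum was the highest of the inflamed tumours in 5 (pit, pan-epithelial, intestinal, squamous and smooth muscle) and the lowest in 5 (macrophage, neutrophil, fibroblast, endothelial and T cell). Its squamous sum was 207 FPKM and those of the other inflamed tumours 3.84 to 7.30, and its smooth muscle sum was 535, beside 24.6 to 247. Its neutrophil sum was 8.05 FPKM, beside 23.6 to 168. The part of these in its antioxidant levels was not tested. Leaving that tumour out left 35 genes called higher and 2 lower. The median coefficient of variation of the 42 genes was 25.2% in inflamed tumours and 26.1% in desert tumours, beside 18.7% and 20.3% over all tested genes in the same groups.

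**Figure D5:**
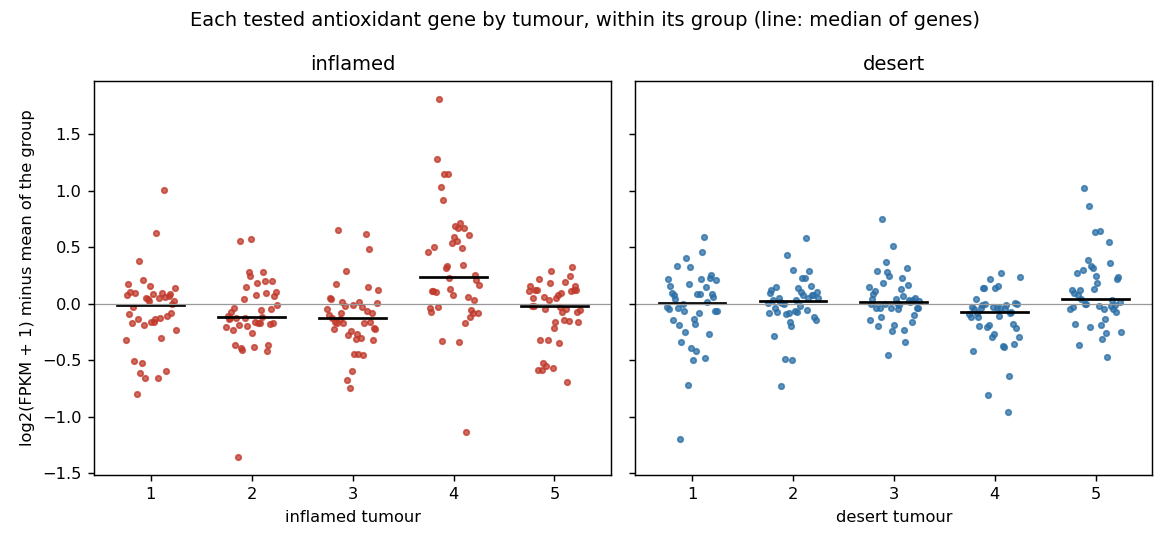
Deviation of each of the 42 tested genes from its group mean, in log2(FPKM + 1), for each inflamed tumour (left panel) and each desert tumour (right panel), with a line at the median of the genes. The median of inflamed tumour 4 is 0.24, above the other 4 inflamed tumours, and the desert medians lie between -0.08 and 0.04.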

How the data were processed

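Bulk RNA from 10 mouse gastric tumours, 1 library each, was sequenced. Per the labels' protocols, TRIzol was used for total RNA. These protocols speak of fewer tumours than the series holds, and all 10 were used. The authors deposited FPKM values for 56748 genes, with gene lengths beside them. The genome build mm10 is named in the submitters' processing notes; the aligner, counter, strand setting and annotation are not given in the sources used here. Reads of near-identical or overlapping genes may therefore be divided in unknown ways. Table starts matched GENCODE M21 in 1485 of 52073 shared gene IDs, so positions are those of the deposited table, with no build named.

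FPKM times gene length, divided by a step fitted in each library, gave whole reads within 0.01 for 100% of the values checked. The library total behind the FPKM was 0.98 (inflamed tumour 4) to 1.146 (desert tumour 2) times the reads in genes. The library size used for the FPKM was therefore not simply that count. Genes averaging 0.5 FPKM or more were compared on log2(FPKM + 1) with limma 3.58.1 (trend, robust, two-sided) under R 4.3.3 (tables read by data.table, version 1.17.8); adding 1 understates the change of low genes. Fold values are ratios of group means of the deposited FPKM, except that of Gsta5, which is against a floor of 3 reads; ratios between genes were computed per tumour and averaged. Sequences and motifs were read with Python 3.11.15, pandas 2.3.3 and Biopython 1.88, and figures drawn with matplotlib 3.10.9. The fit was tested on simulated data. The labels give separate tumours but not whether they came from separate animals, so p-values measure the spread between these tumours.

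The genes, roles and lists were chosen with earlier results of these data known. Full values are given for each role's largest called difference and highest mean, for 6 genes chosen by name (Nfe2l2, Keap1, Nqo1, Hmox1, Gclc and Slc7a11) and for any gene whose call changed with a setting. From each list of other pathway genes the largest called rise, the largest called fall and the highest mean are named. Values of Gclm and Gsta1 and the genes beside them were given to account for every gene of the set. The 19 alternatives were a pseudocount of 0.1, no filter, a mean FPKM of at least 5, TPM, median-of-ratios and quantile scaling, limma without trend or robust moderation, voom on recovered reads (genes averaging 10 or more), a block for tumour number, and the omission of each library in turn.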

Additional observations from a re-analysis of the deposited data

Results flagged for a closer look

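A tumour standing far from the other 4 of its group, by Dixon's test, was found in 8 of the 84 groups of 5 formed by the 42 tested genes, where the nominal rate is about 1 in 20. In 5 of the 8 it was inflamed tumour 4, each time the highest: Nqo1 at 282 FPKM against 76.5 to 131 in the others, Gsto1 at 1448 against 802 to 957, Gsta2 at 16.9 against 4.83 to 6.95, Gsta5 at 5.20 against 0.952 to 1.71, and Gstt3 at 10.9 against 7.49 to 8.20. In desert tumours, Slc7a11 was high in tumour 2 (0.135 FPKM against 0.0328 to 0.0625), Gclc was low in tumour 4 (3.69 against 5.43 to 5.97), and Gstp2 was high in tumour 5 (16.5 against 7.38 to 9.82). The nominal rate holds for independent, normally distributed values, whereas these are FPKM of genes measured in the same tumours. The share over all tested genes was not computed, so no excess particular to these genes can be read from the count.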

How the results depend on the processing

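Over 19 alternatives, 776 of 787 pairs of a gene and an alternative kept the direction and the side of the threshold, 3 calls were lost, 5 were gained and 4 values changed sign (Keap1 in TPM is both a gained call and a sign change), all in 6 of the 42 genes. The genes called higher numbered 34 on the TPM scale, 24 of the 31 tested at a mean FPKM of at least 5, and 34 to 35 with a library left out. On the TPM scale 5 genes were called lower, 2 otherwise, and 2 to 3 with a library left out. The sign changes were all of Keap1, at -0.26 in TPM, -0.04 with voom and -0.01 to 0.09 with a library left out. In TPM the log2 ratio of group means was 0.11 for mu GSTs (0.41 in FPKM), 0.56 for pi GSTs (0.89 in FPKM) and 2.75 for all GSTs (3.08 in FPKM). Over all genes, 3769 were called higher and 6989 lower in TPM, 4609 and 6146 with quantile normalization and 5226 and 5783 with voom, beside 5197 and 5221 in FPKM. Of the 80 tested genes of the pathway lists, 31 were called higher and 32 lower in FPKM, and 24 and 40 in TPM. Msra of these lists kept its higher call in 10 of 18 alternatives. Among list genes, Aldh3a1, Ggt5 and Hpgds passed the filter only through inflamed tumours, and Cbs only through desert tumours. Tumour numbers did not pair the tumours: deviations of same-numbered tumours correlated at -0.0737 to 0.0763, and only number 3 correlated best with its own number. With the tumour number as a replicate block, 35 genes were called higher and 2 lower. Low depth limits the folds of the 7 tested genes with under 100 desert reads in all, Slc7a11, Gsta1, Gsta2, Gsta5, Gsto2, Gstp3 and Gstt1.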
